A study of Homo sapiens and Mus musculus with 92 samples.

Results

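KMT2A (MLL1), KMT2B, KMT2C, KMT2D, SETD1A and SETD1B are the 6 human genes that encode the catalytic subunits of the complexes of the COMPASS family, and their mRNA was followed in HEL cells depleted of MLL1 or of AF9. Each gene was taken by its symbol, and the 6 genes were 6 of 28103 gene symbols in the count tables of both RNA-seq experiments. The proteins methylate lysine 4 of histone H3 (H3K4) through a SET domain that is nearly inactive until it is joined to the shared core of WDR5, RBBP5, ASH2L and DPY30. KMT2A and KMT2B act mainly at promoters rich in CpG and at developmental genes such as the HOX clusters, KMT2C and KMT2D place monomethylation at enhancers, and SETD1A and SETD1B place most of the trimethylation at active promoters. KMT2A is the gene broken by translocations in MLL-rearranged leukemia, and AF9, the product of MLLT3, is among its frequent fusion partners and belongs to the super elongation complex (SEC) and the DOT1L complex.

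HEL is an established human erythroleukemia line without an MLL rearrangement, described as erythroblasts in the sample labels. In the MLL1 experiment, 3 libraries came from MLL1 KD cells and 3 from control cells; in the AF9 experiment, 2 libraries came from AF9 KD cells and 2 from control cells, and the experiments shared no library. Both controls are given the genotype wild type in the labels, while the methods of the study name a control shRNA, and every arm was transduced with a pLKO.1 lentivirus and selected with puromycin. A single shRNA (#1 for each target) stands behind each KD, so that an effect of the target and an effect of the hairpin cannot be told apart.

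Total counts lay between 6966345 and 10380241 per library in the MLL1 experiment and between 12278989 and 14232408 in the AF9 experiment, and the 6 genes had 293 to 10229 counts per library. All 10 erythroid and megakaryocytic markers of HEL cells had a mean TPM of at least 1 in every group, with a summed TPM of 4476 to 4885 in MLL1 experiment control cells against 3681 to 3791 in MLL1 KD cells, and of 35958 to 36177 against 24636 to 28849 in the AF9 experiment. Of 6 markers of other cell types at most 1 reached that level in any group, their summed TPM was 0.328 to 5.95, and CD3E, MS4A1, CD14, MPO and EPCAM were at 0 in at least 1 library. The sums of the erythroid and megakaryocytic markers weigh 2 globin genes most. HBG2 reached 24609 TPM and HBG1 9105 in a library, and the next highest marker, ITGA2B, 972. A lower sum therefore does not show a fall of all these markers. The part of the marker changes in the results below was not tested. In the MLL1 experiment replicate 1 of both groups stood apart from replicates 2 and 3. Libraries with the same number deviated together, but replicates 2 and 3 did so across numbers at least as much as within them. The deviations thus set replicate 1 apart and do not show 2 and 3 as separate pairs. Values with the replicate number as a block, or from replicates 2 and 3 alone, stand beside the results they change. Neither the labels nor the methods say that the libraries of a group came from separate cultures, and p-values then measure only the spread between these libraries.

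The shRNA targets are shown because they set which of the 6 genes each hairpin can pair with. The MLL1 target occurred once in hg38, at chr11:118474149-118474169 on the plus strand, in the coding part of exon 3 of the 36 exons of KMT2A. The AF9 target occurred once, at chr9:20414247-20414267 on the minus strand, in the coding part of exon 5 of the 11 exons of MLLT3. Among the other genes of the family the closest window without gaps lay in KMT2C for both hairpins, at chr7:152194536-152194556 in exon 29 for the MLL1 target, where 15 of 21 bases matched, and at chr7:152248371-152248391 in exon 14 for the AF9 target, where 16 of 21 matched. The latter is 1 of 3 windows of KMT2C with 16 matches to the AF9 target. Capitals mark bases equal to the target at the same place.
MLL1 shRNA #1 target in KMT2A: gcactgttaaacattccactt
closest KMT2C window to the MLL1 target: tCACTGaTgAtCcTTCCtCTT
AF9 shRNA #1 target in MLLT3: ttcaaagcctcacaaattaat
KMT2C window to the AF9 target, 1 of 3 tied: aTCAAgGCCTCcaAAATTAgT
A window with at least 15 matches to the MLL1 target was present in the canonical transcript of 4.16% of 13984 tested genes, and one with at least 16 matches to the AF9 target in 0.989% of 13041. These shares take no account of length, and a long transcript such as that of KMT2C (16860 bases) holds more windows. The closest windows of KMT2B, KMT2D, SETD1A and SETD1B matched 12 to 13 bases of the MLL1 target and 12 to 14 of the AF9 target, and the best window of KMT2A for the AF9 target matched 14. The seed match of the MLL1 guide (TTCCACT) was found once in the 3′ UTR of KMT2A and once in that of KMT2D, against 15.0% of 11937 genes with at least 1 match. That of the AF9 guide (AAATTAA) was found once in the KMT2A 3′ UTR and in no other of the 6 genes, against 29.0% of 11645 genes. The seed shares take no account of length either. The 3′ UTR measures 4660 bases in KMT2A and 2802 in KMT2D, against medians of 1276 bases in the MLL1 and 1301 in the AF9 experiment.

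The genes are long and differ in base composition. KMT2A (ENSG00000118058) lies at chr11:118436456-118526832 on the plus strand and its merged exons are 43.6% GC. KMT2B (ENSG00000272333; chr19:35717973-35738880, plus strand, 61.6% GC) is its closest relative. KMT2C (ENSG00000055609; chr7:152134922-152436644, minus strand) is the longest gene of the family and the lowest in GC, at 39.4%, whereas its relative KMT2D (ENSG00000167548; chr12:49018975-49060794, minus strand) has 57.5%. SETD1A (ENSG00000099381; chr16:30957294-30984664, plus strand) has 63.1% and SETD1B (ENSG00000139718; chr12:121804009-121832656, plus strand) has 61.4%. The canonical transcripts measure 5991 bases for SETD1A to 20635 bases for KMT2D.

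How uniquely reads can be placed differed between the genes. In KMT2C 9.76% of the 31-base stretches of its exons occurred elsewhere in hg38, and 14 of its 59 exons, between exon 7 and exon 34, were repeated over at least 50% of their stretches. The largest share of its transcript was in common with BAGE2, at 8.27%. In the other 5 genes at most 0.224% of the exon stretches were repeated in the genome. Between members, KMT2A and KMT2B had 12 stretches in common and no other pair had any. KMT2A also overlaps an annotated gene of the same strand (ENSG00000285827) in 21.7% of its stretches, which counting by strand, as the methods of the study state it, does not separate. KMT2D has 2.97% of its transcript stretches in common with another annotated gene (ENSG00000288710). The setting for reads that fit several genes or places is not given in the sources used here, so counts of KMT2A, KMT2C and KMT2D are uncertain by that part.

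Promoters of 3 genes are printed, SETD1B having no entry in the table used, because the genes fell (KMT2A, KMT2C) or rose (SETD1A) after AF9 KD by the adjusted p, and because CpG is the sequence that the CXXC domains of KMT2A and KMT2B, and CXXC1 in the SETD1 complexes, are known to bind. They run from 250 bases before to 50 after the start in RefSeq (GRCh38.p14), on the gene's strand, with every CpG in capitals.
KMT2A, chr11:118436242-118436541: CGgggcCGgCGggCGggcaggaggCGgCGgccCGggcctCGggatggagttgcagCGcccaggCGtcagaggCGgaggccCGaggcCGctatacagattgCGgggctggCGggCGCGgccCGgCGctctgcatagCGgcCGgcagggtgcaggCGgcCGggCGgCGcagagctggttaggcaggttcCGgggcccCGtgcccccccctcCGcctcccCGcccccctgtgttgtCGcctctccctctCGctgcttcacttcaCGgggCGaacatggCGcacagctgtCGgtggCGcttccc
KMT2C, chr7:152435954-152436253: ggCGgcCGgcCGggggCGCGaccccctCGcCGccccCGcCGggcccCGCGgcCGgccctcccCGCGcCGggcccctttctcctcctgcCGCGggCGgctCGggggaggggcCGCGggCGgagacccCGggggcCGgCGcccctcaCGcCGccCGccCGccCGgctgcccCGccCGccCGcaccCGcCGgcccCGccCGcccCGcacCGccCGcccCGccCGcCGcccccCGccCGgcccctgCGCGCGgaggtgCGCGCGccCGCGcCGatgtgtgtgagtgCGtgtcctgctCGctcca
SETD1A, chr16:30957504-30957803: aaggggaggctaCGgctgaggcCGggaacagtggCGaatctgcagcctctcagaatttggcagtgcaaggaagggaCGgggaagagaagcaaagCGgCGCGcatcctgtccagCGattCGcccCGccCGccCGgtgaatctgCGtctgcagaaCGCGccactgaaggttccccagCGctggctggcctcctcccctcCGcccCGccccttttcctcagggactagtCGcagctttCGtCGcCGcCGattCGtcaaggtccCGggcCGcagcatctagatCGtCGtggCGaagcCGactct
The KMT2C promoter held 56 CpG, a number reached by 0.37% of the promoters of 10539 tested genes, although its exons are the lowest in GC of the 6. KMT2B had 48 CpG, KMT2A 36, SETD1A 30 and KMT2D 27, against a median of 26, and at least 1 CpG was present in 99.3% of these promoters, so the presence of CpG as such does not set these 5 genes apart.

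Levels between genes were compared per length, as TPM over merged exons. In control cells of the MLL1 experiment KMT2A was the highest at 158.7 ± 7.81 TPM (SD, n = 3), followed by KMT2D at 140.7 ± 11.7, SETD1B at 87.2 ± 2.55, KMT2B at 79.97 ± 8.60, SETD1A at 56.5 ± 11.2 and KMT2C at 20.8 ± 0.696. The libraries of KMT2A and KMT2D overlapped, as did those of SETD1B and KMT2B, so the ranges over libraries did not separate these neighbours in the order. Within each of the 3 libraries KMT2A was above KMT2D, at 167.5 against 154.1, 156.0 against 134.0 and 152.6 against 133.9 TPM, while SETD1B and KMT2B changed places between libraries. In control cells of the AF9 experiment the order was KMT2A at 62.9 ± 2.47 TPM (SD, n = 2), KMT2D at 37.7 ± 2.43, KMT2B at 32.3 ± 4.98, SETD1A at 14.2 ± 1.02, SETD1B at 13.4 ± 0.178 and KMT2C at 8.27 ± 0.356, with overlap between SETD1A and SETD1B alone. KMT2A was thus first and KMT2C last in both controls. The last place of KMT2C depended on the length used: with the longest transcript in place of merged exons, which for KMT2C is 16860 in place of 53322 bases, it had 49.5 TPM and stood before SETD1A in the first control, and with 18.1 TPM before SETD1A and SETD1B in the other. With that length KMT2A (224.8 TPM) and KMT2D (130.2) did not overlap in the first control, and KMT2B (76.6) stood above SETD1B (65.7) without overlap.

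**Figure D1:**
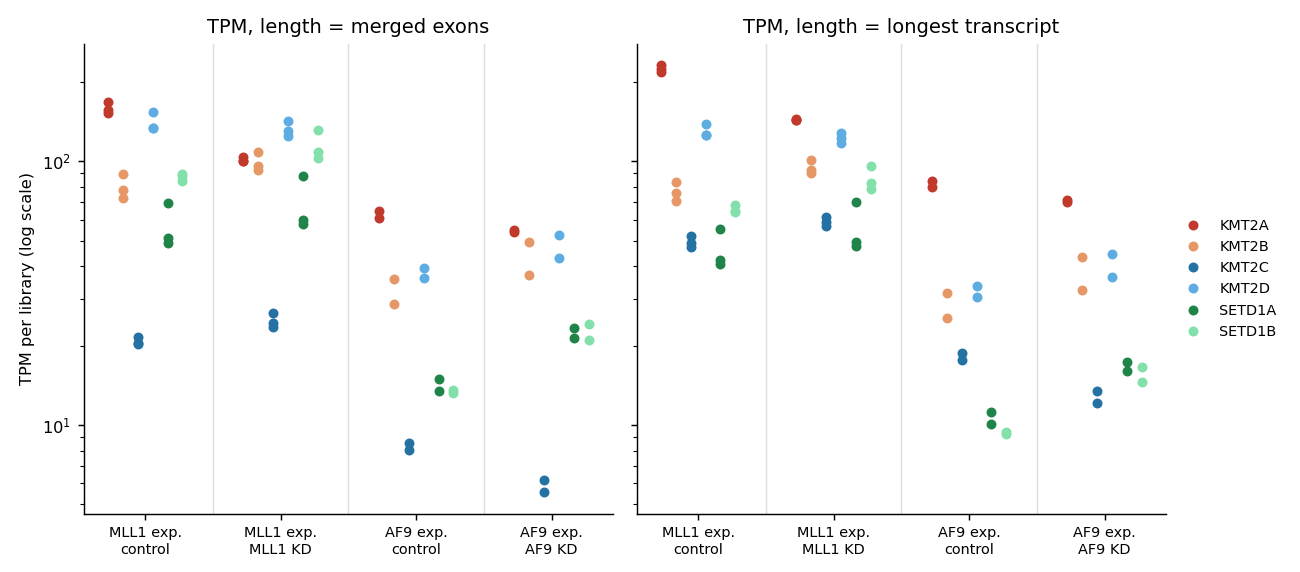
TPM of the 6 genes in each library (points; log axis) for the 4 groups, with gene length taken as merged exons (left) or as the longest transcript (right). KMT2A (red) was the highest gene in both controls under both lengths, and KMT2C (dark blue) was the lowest in all 4 groups with merged exons, from 5.87 to 24.8 TPM as group means.

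The controls of the experiments differed in the level of all 6 genes. Mean CPM (counts scaled for library size, with TMM factors within each experiment) was 2.72-fold (KMT2B) to 7.18-fold (SETD1B) higher in the controls of the MLL1 experiment, while the median ratio of 12729 genes tested in both was 1.06. The experiments were scaled separately and this difference was not tested, and the experiment and the level cannot be told apart. Every fold change below is therefore within an experiment.

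KMT2A was at 0.635-fold of control after MLL1 KD, and the other 5 genes lay within 1.5-fold of control. In edgeR on all libraries the KMT2A change passed with the replicate number as a block and not without it. No gene of the family was called by edgeR without the block (0 of 6, with 0.0625% of all tested genes called). An unadjusted p under 0.05 was seen for 4 of 6 (KMT2A, KMT2B, KMT2C and SETD1B), against 9.97% of all genes. KMT2A is the target of the hairpin, so its fall was the aim of the design and does not count for the family. DESeq2 called 1, as did edgeR with replicates 2 and 3 alone, in each case KMT2A. With the replicate number as a block KMT2A was called lower, against 2.5% of genes called lower in that fit. KMT2B, KMT2C, SETD1A and SETD1B passed the adjusted p there in the upward direction, against 6.65% of genes. KMT2C and SETD1A did not pass in DESeq2 with the block (adjusted p = 0.089 and 0.15) or in edgeR with length offsets and the block (0.062 and 0.054), where KMT2B and SETD1B passed. The KD libraries lay wholly below the control libraries for 1 gene, the target KMT2A (9.08% of all genes), and wholly above them for 3 (8.64%).

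KMT2A, the target, had 1323, 1299.7 and 1258 CPM in the 3 control libraries and 813, 815 and 835 CPM in the MLL1 KD libraries. All 3 KD libraries lay far below all controls, and they differed from each other by less than the controls did. In a bulk sample fewer cells with the transcript and less transcript per cell cannot be told apart. The log2 fold change was −0.66 ± 0.09 (SE), or 0.635-fold, with an edgeR adjusted p of 0.072 without the block, 3.5e-07 with it, and 0.042 without MLL1 KD replicate 1. Without any other single library the adjusted p without the block was 0.19 to 0.48. DESeq2 on the same genes gave an adjusted p of 1.1e-06 and called it lower too, as it did 0.827% of all genes. The replicate pairs differed by −0.70, −0.67 and −0.59 on the log2 scale, and an exact permutation test (two-sided) gave p = 0.1, the smallest value that 3 against 3 libraries allow. As a share of the summed TPM of the 6 genes, KMT2A went from 29.2% in control to 18.8% in MLL1 KD cells, and from the first to the third place in the order, where its libraries overlapped those of SETD1B and KMT2B. The summed TPM was 543.8 ± 39.3 (SD, n = 3) in control and 541.0 ± 52.5 in MLL1 KD cells, a difference far within the spread between libraries. With the longest transcript as length the sum was 621.3, 575.5 and 581.9 TPM in the control libraries and 600.3, 536.3 and 548.2 in the MLL1 KD libraries, lower in all 3 pairs although the groups overlapped. With the longest transcript as length KMT2A remained first in MLL1 KD cells, at 143.7 ± 0.711 TPM after 224.8 ± 6.33 in control.

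KMT2B, whose protein shares the menin-binding and CXXC domains of KMT2A, had 243, 208 and 220.4 CPM in control and 291, 269 and 264 CPM in MLL1 KD libraries. The groups did not overlap, and replicate 1 was the highest library of each. KMT2B had a log2 fold change of 0.30 ± 0.11 (edgeR adjusted p = 0.42 without and 0.0086 with the block), and the pairs differed by 0.26, 0.37 and 0.26.

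KMT2C had 274, 287 and 302 CPM in control and 351, 326 and 342 CPM in MLL1 KD libraries, again without overlap. Its log2 fold change was 0.24 ± 0.10 (edgeR adjusted p = 0.49 without and 0.026 with the block). KMT2D, the other enhancer methyltransferase and the gene mutated in Kabuki syndrome, had 984, 903 and 892 CPM in control and 901, 826 and 875 CPM after MLL1 KD. The KMT2D libraries overlapped, the log2 fold change was −0.10 ± 0.10, and neither the fit without the block (edgeR adjusted p = 0.84) nor that with it (0.30) passed the threshold. KMT2D was the only one of the 6 genes with no adjusted p under the threshold in any of these 2 fits.

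SETD1A had 122, 90.8 and 93.5 CPM in control and 153, 105 and 110.5 CPM in MLL1 KD libraries. Replicate 1 was far above the others in both groups, so that the groups overlapped although each KD library was above the control of its own number, by 0.33, 0.20 and 0.24 on the log2 scale. The log2 fold change was 0.27 ± 0.19 (edgeR adjusted p = 0.73 without and 0.047 with the block). Without MLL1 KD replicate 1 and no block the value was 0.08, and without control replicate 1 it was 0.41. SETD1B had 189, 191 and 200.4 CPM in control and 279, 229 and 246 CPM in MLL1 KD libraries, which did not overlap. It showed the largest upward value of the family, at 0.38 ± 0.12 (edgeR adjusted p = 0.31 without and 0.0034 with the block), with pairs at 0.56, 0.26 and 0.29. With replicates 2 and 3 alone, the 4 upward genes kept log2 fold changes of 0.18 (KMT2C) to 0.31 (KMT2B), with edgeR adjusted p of 0.0076 for KMT2C, 3.8e-06 for KMT2B, 0.034 for SETD1A and 8.8e-05 for SETD1B. Over all genes that fit called 704, against 9 with all libraries and no block. The share of all genes past the adjusted p in that fit is not given here. Its libraries are also part of the block fit.

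**Figure D2:**
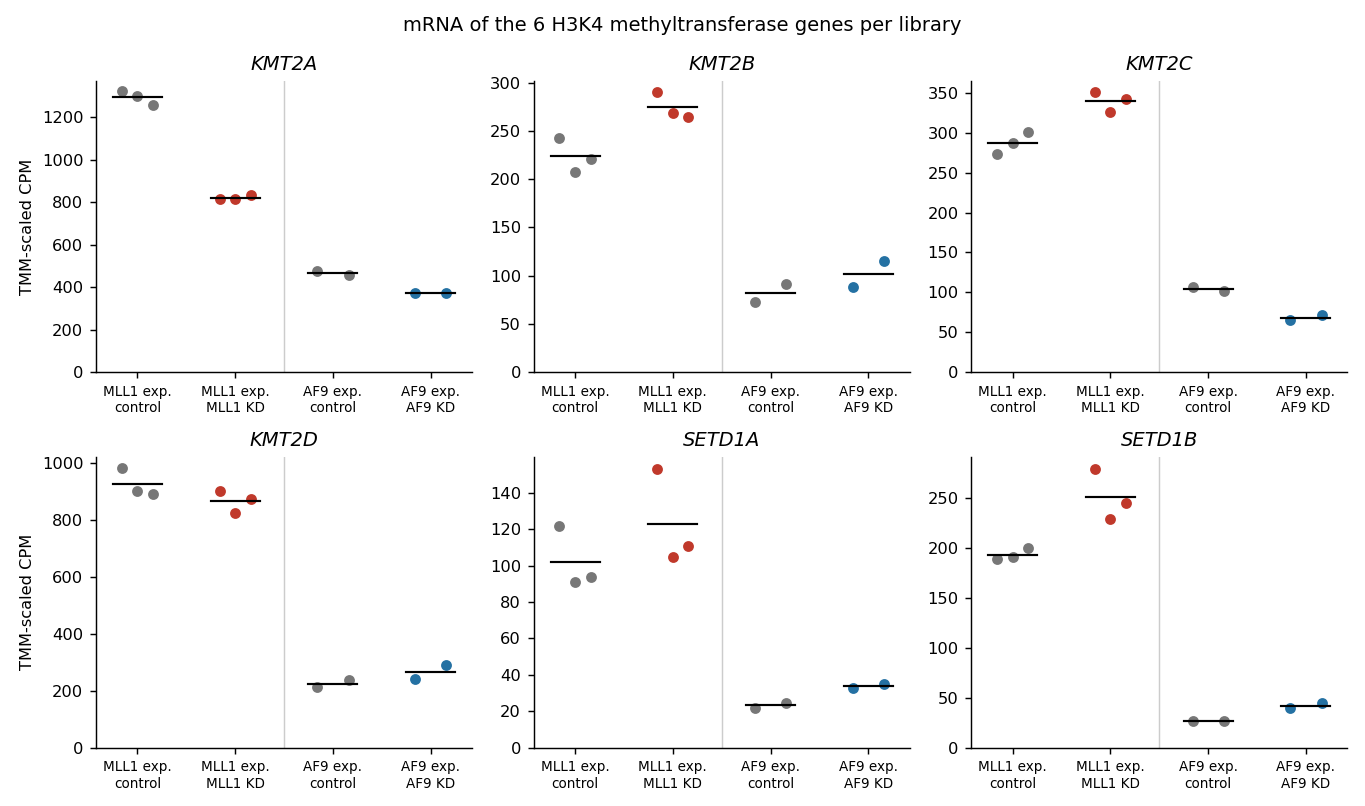
CPM (TMM-scaled counts) of each gene in every library of the 4 groups, on a linear axis from 0; points are libraries and bars are group means. In the MLL1 experiment KMT2A is at 813 to 835 CPM in all MLL1 KD libraries against 1258 to 1323 in control, and in the AF9 experiment KMT2C goes from 101 to 106 CPM in control to 65.3 to 71.4, and SETD1B from 26.9 to 27.0 to 39.8 to 44.6.

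After AF9 KD 1 gene of the family was called in each direction, and with GC offsets none was. KMT2C was called lower (1 of 6, with 5.06% of tested genes called lower) and SETD1B was called higher (1 of 6, with 8.02% called higher). KMT2A fell and SETD1A rose by the adjusted p but within 1.5-fold, which brought the genes past the adjusted p to 2 lower (14.6% of all genes) and 2 higher (14.4%). The fall of KMT2A is one of mRNA, and by Western blot the study reported MLL1 protein as unaffected by AF9 KD. The AF9 KD libraries lay wholly below control for 2 genes and wholly above for 3, shares that 33.2% and 32.8% of all tested genes reached in this design of 2 against 2. MLLT3, the target, had 548 and 528 CPM in control and 107 and 92.6 CPM in AF9 KD libraries, a log2 fold change of −2.43 ± 0.11 (edgeR adjusted p = 3.2e-08).

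KMT2A had 475 and 455 CPM in control and 373 and 373 CPM in AF9 KD libraries, which lay below both controls and nearly coincided. The log2 fold change was −0.32 ± 0.09 (edgeR adjusted p = 0.020), and the adjusted p was 0.31 without control replicate 1 and 0.15 without control replicate 2. KMT2B had 72.7 and 91.7 CPM in control and 88.3 and 115 CPM after AF9 KD, with replicate 2 higher in both groups and the groups overlapping. Its log2 fold change of 0.31 ± 0.13 did not pass the threshold (edgeR adjusted p = 0.099).

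KMT2C had 106 and 101 CPM in control and 65.3 and 71.4 CPM in AF9 KD libraries, a wide gap against the spread within groups. The log2 fold change was −0.60 ± 0.10, or 0.659-fold (edgeR adjusted p = 0.00068). The adjusted p passed under all alternatives, at most at 0.0057, but the value sat close to the fold threshold and was below it without control replicate 1 (−0.57) or without AF9 KD replicate 1 (−0.53). KMT2D had 214 and 237 CPM in control and 241 and 290 CPM in AF9 KD libraries, which lay just above the controls. Its log2 fold change of 0.24 ± 0.11 did not pass (edgeR adjusted p = 0.12).

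SETD1A had 21.9 and 24.6 CPM in control and 33.0 and 35.1 CPM in AF9 KD libraries, so both KD libraries were above both controls. SETD1A thus had a log2 fold change of 0.55 ± 0.13, or 1.47-fold (edgeR adjusted p = 0.0057), and it crossed 1.5-fold without control replicate 2 (0.63) or without AF9 KD replicate 1 (0.60). Without control replicate 1 the adjusted p was 0.10. SETD1B had 27.0 and 26.9 CPM in control, which were nearly equal, and 39.8 and 44.6 CPM in AF9 KD libraries. SETD1B had a log2 fold change of 0.65 ± 0.12, or 1.57-fold (edgeR adjusted p = 0.0017), and it was 0.57, under the fold threshold, without AF9 KD replicate 2. The summed TPM of the 6 genes was 168.7 ± 5.43 (SD, n = 2) in control and 196.1 ± 20.2 in AF9 KD cells, and KMT2A made up 37.3% and 27.7% of it. With the longest transcript as length the sum was 178.9 and 183.1 TPM in the control libraries and 181.7 and 206.6 in the AF9 KD libraries. The groups then overlapped, so their separation in the sum depended on the length used.

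In the AF9 experiment the sign of the fold change split the 6 genes by GC content. Without offsets for GC the genes under 45% GC, KMT2A and KMT2C, had negative values, and the 4 genes above 55% had positive ones. The same trend ran through all tested genes: the median log2 fold change was −0.18 at 35 to 40% GC, −0.13 at 40 to 45%, 0.26 at 55 to 60% and 0.48 at 60 to 65%, and the rank correlation of fold change with GC across 13042 genes was 0.48. Genes are not independent replicates, and this value is a description. When the trend of each library with GC content was removed by offsets, KMT2C remained lower by the adjusted p (log2 fold change −0.42 ± 0.09, edgeR adjusted p = 0.0046) but no longer by 1.5-fold. Under these offsets SETD1B was at 0.19 ± 0.11 (edgeR adjusted p = 0.20), SETD1A at 0.01 ± 0.11 (0.95) and KMT2A at −0.21 ± 0.08 (0.066). KMT2B turned to −0.15 ± 0.09 (edgeR adjusted p = 0.22) and KMT2D to −0.02 ± 0.08 (0.89). No member was then called, with 7.97% of all genes called, and 1 stayed lower by the adjusted p (14.2% of all genes) and 0 higher (12.2%). Over all genes the share of calls that were higher was 61.3% without and 46.6% with the GC offsets, and 76.4% with total counts in place of TMM.

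In the MLL1 experiment no such trend was seen, with medians between −0.03 and 0.07 in all GC classes and a rank correlation of −0.07 across 13985 genes. The GC offsets left the 6 genes close to their values there, with KMT2A at −0.67, KMT2B at 0.31, KMT2C at 0.21, KMT2D at −0.05, SETD1A at 0.28 and SETD1B at 0.40.

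**Figure D3:**
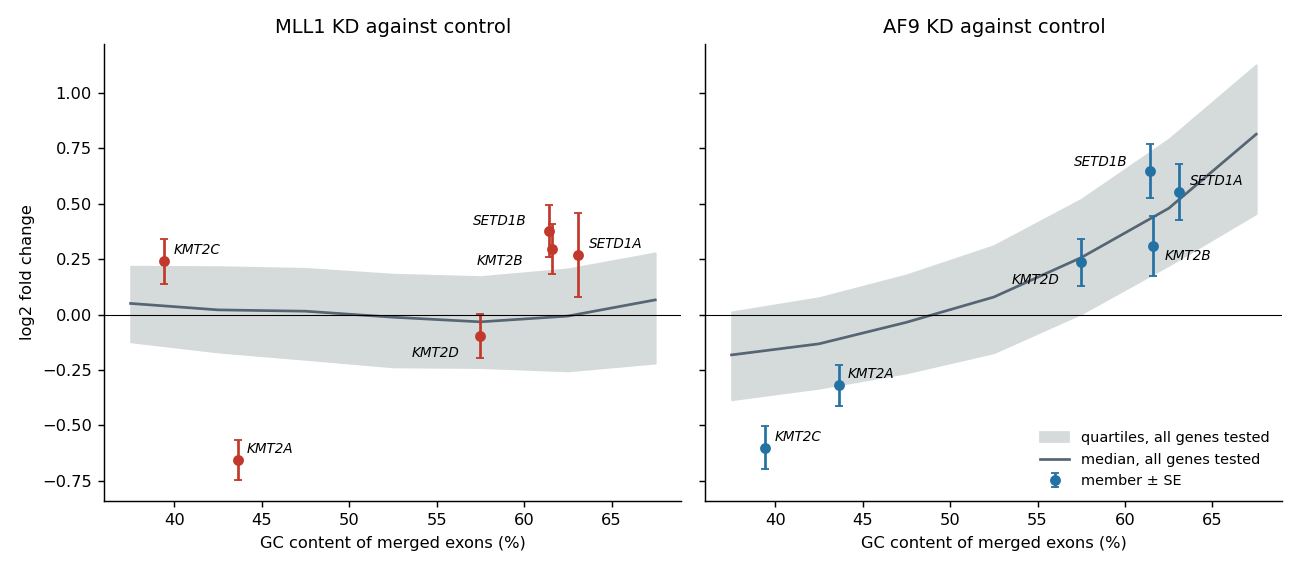
Log2 fold change of the 6 genes (points, ± SE) against the GC content of their merged exons, over the median (line) and quartiles (band) of all tested genes, plotted at the middle of GC classes 5 percentage points wide. In the AF9 experiment the median rises from −0.18 to 0.81 with GC and the genes follow it, KMT2C lying below the lower quartile; in the MLL1 experiment the line is flat and KMT2A lies far below it.

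**Figure D4:**
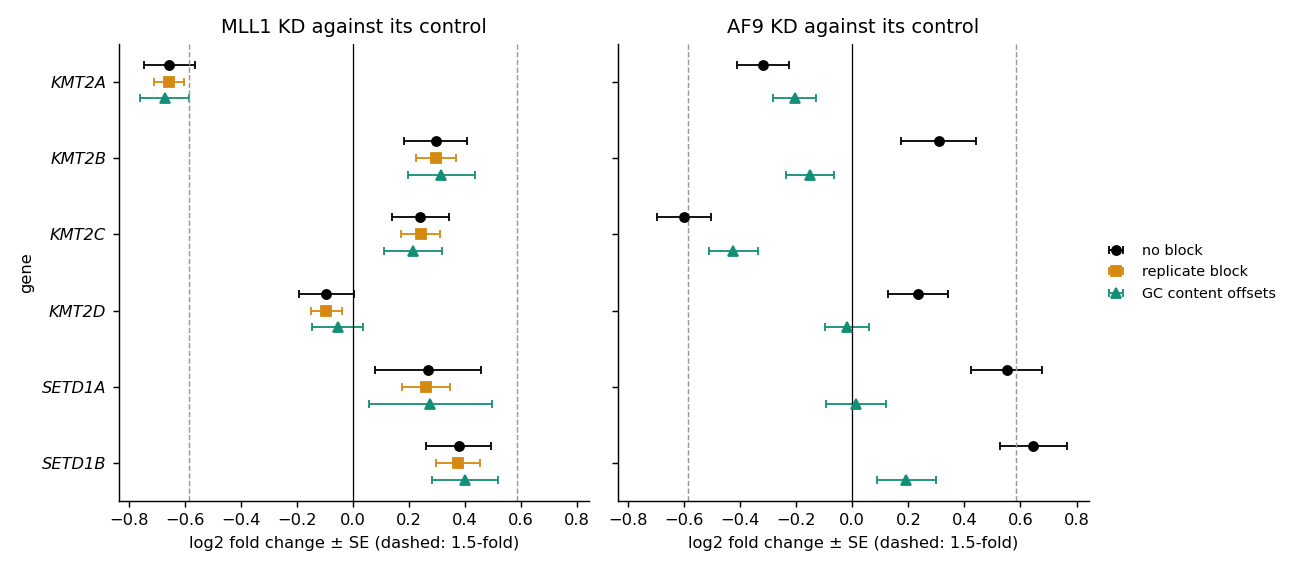
Log2 fold change ± SE of each gene in each KD against its own control, without block (black circles), with the replicate block (orange squares, MLL1 experiment) and with GC content offsets (green triangles); dashed lines mark 1.5-fold. In the MLL1 experiment the 3 fits give nearly equal values, and in the AF9 experiment the GC offsets bring KMT2B to −0.15, KMT2D to −0.02 and SETD1A to 0.01.

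Whether a KD effect differed between the experiments was tested in a joint fit of all 10 libraries. KMT2C was the gene of the family past the threshold: its effect was 0.86 ± 0.15 higher on the log2 scale after MLL1 KD than after AF9 KD (edgeR adjusted p = 0.035), with 1.35% of 12729 genes past the same threshold. It stood at 0.24 in the first experiment and −0.60 in the other. The value kept its sign under all alternatives, from 0.65 to 0.91. The replicate block of the joint fit paired same-numbered libraries in both experiments. In the AF9 experiment there are too few libraries to take the numbers as pairs. All block values of the difference, for members and partners, carry this limit. With that block the edgeR adjusted p was 9.7e-05, with GC offsets the difference was 0.65 ± 0.15 (edgeR adjusted p = 0.10), and with both it was 0.65 ± 0.12 (0.0021). Among fits that leave out 1 library, only the fit without MLL1 KD replicate 1 passed the threshold (0.011), and the fits without any of the other 9 libraries had adjusted p of 0.051 to 0.26.

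The difference for KMT2A was −0.32 ± 0.12 (edgeR adjusted p = 0.22 without and 0.020 with the block), and that for KMT2D was −0.31 ± 0.16 (0.36 and 0.031). These 2 genes passed only with the block, where 24.4% of all genes did. KMT2B differed by 0.01 ± 0.21 (edgeR adjusted p = 0.99), a value that changed its sign under several alternatives. With GC offsets and the block together KMT2B differed by 0.47 ± 0.11 (edgeR adjusted p = 0.011, with 14.6% of genes past the threshold). SETD1A at −0.26 ± 0.27 (edgeR adjusted p = 0.69) and SETD1B at −0.25 ± 0.17 (0.49) did not pass, and with GC offsets both values were positive, at 0.26 and 0.21. These errors leave room for differences of either sign.

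Partner genes of the 6 enzymes were read against the share of all genes. Of 28 tested genes of the complexes, the H3K4 demethylases and other SET domain proteins, 0 passed the adjusted p after MLL1 KD in the edgeR fit without the block or in DESeq2, and 2 had an unadjusted p under 0.05 in each. Over all genes 0.0625% passed the adjusted p in that edgeR fit and 1.92% in DESeq2, and 9.97% had an unadjusted p under 0.05 in edgeR. With the block 2 were lower and 4 higher, against 6.94% and 6.65% of all genes, and none reached 1.5-fold. DESeq2 with the block passed KDM5B and KDM5C alone, edgeR with length offsets and the block did not pass ASH1L or NCOA6, and edgeR with GC offsets and the block did not pass HCFC2. KDM5C, a demethylase of H3K4, had 206, 164 and 161 CPM in control and 147, 114 and 118 in MLL1 KD libraries (log2 fold change −0.48 ± 0.08, edgeR adjusted p = 0.00043 with the block), and SETD7, a monomethyltransferase, was at −0.32 ± 0.10 (0.043). KDM5B (0.30 ± 0.08, edgeR adjusted p = 0.011), HCFC2 (0.54 ± 0.17, 0.042), NCOA6 of the KMT2C and KMT2D complexes (0.21 ± 0.06, 0.037) and ASH1L (0.24 ± 0.07, 0.034) were higher in the same fit. SMYD1 had no count in any library, and PRDM9 passed the filter on expression in the MLL1 experiment alone.

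After AF9 KD 3 of 27 tested partners were lower and 4 higher by the adjusted p, against 14.6% and 14.4% of all genes. These counts are near the shares of all genes, so the partners as a set did not stand out, and the single genes are given as description. In the core, ASH2L had 385 and 361 CPM in control and 312 and 289 after AF9 KD (log2 fold change −0.31 ± 0.10, edgeR adjusted p = 0.024), while WDR5 went from 42.6 and 49.1 to 58.8 and 59.2 CPM (0.37 ± 0.11, 0.024). Without control replicate 1, MEN1 and KDM5B alone kept an adjusted p under 0.05 among the partners. Among subunits of the KMT2A and KMT2B complexes, MEN1, which encodes menin and tethers both enzymes to chromatin, went from 45.5 and 50.6 to 78.4 and 70.7 CPM. It was the 1 partner called (log2 fold change 0.64 ± 0.11, edgeR adjusted p = 0.00092), with 8.02% of all genes called higher. Without control replicate 1 or without AF9 KD replicate 1 no partner was called, and without control replicate 2 the calls were MEN1, HCFC1, CXXC1 and KDM5B. HCFC1, which binds KMT2A as well as the SETD1 complexes, was at 0.55 ± 0.12 (edgeR adjusted p = 0.0035), and CXXC1, the CpG-binding subunit of the SETD1 complexes, at 0.47 ± 0.12 (0.0078). None of the 4 subunits of the KMT2C and KMT2D complexes passed. KDM5B was lower at −0.54 ± 0.09 (edgeR adjusted p = 0.0011), with 211 and 195 CPM in control and 143 and 135 after KD, and so was KMT2E at −0.38 ± 0.10 (0.015), a SET domain protein named with the family.

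With GC offsets 2 partners stayed lower, against 14.2% of all genes: ASH2L (log2 fold change −0.24, edgeR adjusted p = 0.036) and KDM5B (−0.39, 0.0024). WDR5 (0.11, edgeR adjusted p = 0.38), MEN1 (0.28, 0.068), HCFC1 (0.12, 0.36), CXXC1 (0.10, 0.42) and KMT2E (−0.23, 0.057) did not pass, and KDM1A, a demethylase of H3K4, passed at 0.30 (0.015). KDM1A was the 1 partner higher in that fit, against 12.2% of all genes. The median log2 fold change of the 27 partners was 0.004 without offsets, beside 0.009 for all genes. No partner passed the test of the difference between the experiments without the block (0 of 27 in edgeR, against 1.35% of all genes). In that fit 4 had an unadjusted p under 0.05, against 17.3% of all genes. KDM5B and KMT2E passed in DESeq2 and in edgeR without MLL1 KD replicate 1. With the block 3 were lower (MEN1, HCFC1, KDM5C) and 4 higher (KDM5B, KMT2E, HCFC2, ASH1L) in MLL1 KD than in AF9 KD, which is 7 of 27, near the 24.4% of all genes that passed in that fit. With GC offsets and the block KDM5B, KDM5C and KMT2E passed, against 14.6% of all genes, and HCFC1 went from −0.50 to −0.05. In the fit without the block their adjusted p in edgeR lay between 0.11 and 0.42.

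**Figure D5:**
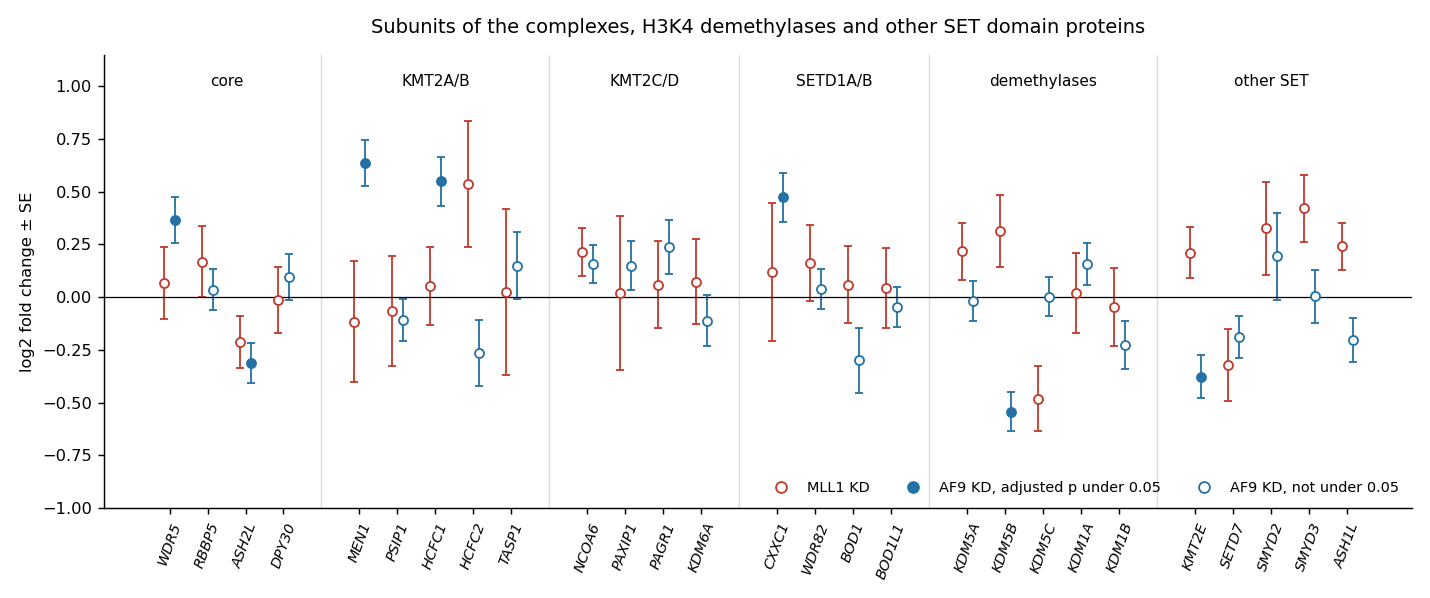
Log2 fold change ± SE of 27 subunits, H3K4 demethylases and other SET domain proteins after MLL1 KD (red) and after AF9 KD (blue; filled where the adjusted p is under 0.05), in the fits without block. No red point passed the test, and the blue points past it are WDR5, MEN1, HCFC1 and CXXC1 on the upper side and ASH2L, KDM5B and KMT2E on the lower.

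The genes with the profile most like each member over the 10 libraries were named by the root mean square (RMS) difference of log2 CPM after centring within each experiment, among 6834 genes with a mean CPM of at least 20 in both. For KMT2A these were USP37, OSGIN2 and COX4I1, at 0.056 to 0.060. For KMT2B they included PCGF2 and ZDHHC7 (0.0807 and 0.0811), and for KMT2C they were WNK1, SPAG9 and NARF (0.056 to 0.064). KMT2D was closest to PML, RPS2 and TNFAIP1 (0.048 to 0.055), SETD1A to MRPS34, SMARCA4 and GATAD2A (0.050 to 0.058), and SETD1B to EXOC7, CLSTN1 and DOP1B (0.078 to 0.079). Between members the smallest difference was that of SETD1A and SETD1B (0.153) and the largest that of KMT2A and SETD1B (0.508). The points share libraries and the GC trend of the AF9 experiment, so likeness is a description of these profiles only.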

How the data were processed

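RNA-seq libraries of HEL cells were analysed from the counts per gene that the authors deposited, 10 libraries in 2 tables. The authors filtered reads with fastp (0.13.1), mapped them to hg38 with HISAT2 (2.1.0) and counted them by strand with featureCounts (1.6.1; versions from the submitters' processing notes). The annotation behind the gene symbols is not given in the sources used here. The other 82 samples of the series (CUT&Tag, PRO-seq and other cells) were not analysed here.

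Symbols were joined to GENCODE v44 (92.4% of 28103 matched) for exon lengths, GC content and sequences. The filter kept genes whose TPM averaged at least 1 (14393 in the MLL1 and 13331 in the AF9 experiment), and these were tested with edgeR 4.0.16 in R 4.3.3 (TMM, glmQLFit and glmQLFTest, two-sided, Benjamini-Hochberg over all genes tested), each KD against its own control, and the difference of the KD effects in a joint fit of 10 libraries. Calls needed both a 1.5-fold change and an adjusted p under 0.05, and the difference was judged by the adjusted p alone. DESeq2 1.42.0 was an alternative. Log2 CPM used a prior count of 2, and GC offsets came from a lowess trend (span 0.3). Scripts were tested on simulated counts. Counts were lowest for SETD1A and SETD1B in the AF9 experiment, at 293 to 595 per library. The largest SE of a member in the KD fits without the block was that of SETD1A in the MLL1 experiment (0.19).

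Same-numbered MLL1 experiment libraries deviated together from their group means (correlations of 0.648, 0.326 and 0.352 over 14393 genes). The numbers were used as the block there, although the deviations set only replicate 1 apart and do not show 2 and 3 as separate pairs. The block of the joint fit paired the numbers in both experiments. The pairing comes from the data, since the labels give only the number, and replicates 2 and 3 also correlated with each other across groups (0.359 and 0.369).

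Named genes were the 6 members, MLLT3, partner genes with an adjusted p under 0.05 in any of the 3 fits without the block, and the 3 genes most like each member. Of these 1 gene is not reported here, nor is 1 cell type marker. KDM1A and the partners named only with the block were chosen after their values were seen. The members, the lists and the alternatives were chosen with earlier results of these data known.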

Additional observations from a re-analysis of the deposited data

Results flagged for a closer look

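In the fit without the block the KD effect on KMT2C differed between the experiments by 0.86 on the log2 scale, as MLL1 KD effect minus AF9 KD effect (edgeR's quasi-likelihood test of the difference, adjusted p = 0.035). It also passed with the block, in DESeq2 and with total counts. It did not pass with no filter, GC offsets (edgeR adjusted p = 0.10) or length offsets (0.052). With 1 library of the MLL1 experiment left out, it passed only without MLL1 KD replicate 1. KMT2C was higher in 3 of 3 replicate pairs of the MLL1 experiment and lower in 2 of 2 AF9 KD libraries. Leaving out the target KMT2A itself, the closest windows of both shRNA targets within the family, the lowest GC content (39.4%) and the largest share of repeated exon stretches (9.76%) were also those of KMT2C, and their part in the difference was not tested beyond the GC offsets, under which it was 0.65.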

How the results depend on the processing

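Of 734 comparisons of a result with an alternative, 534 kept direction and call, and 17 reversed direction. After MLL1 KD 0 members were called lower, against 1 (KMT2A) with DESeq2 on the same genes or on all genes, with the replicate block alone or with GC or length offsets, with replicates 2 and 3 alone, and with DESeq2 with the block (chosen after seeing the data). Leaving out 1 library gave 0 to 1. After AF9 KD 1 member was called lower (KMT2C), against 0 with total counts, a mean TPM of at least 5, GC offsets or length offsets (each with and without the block) or a fold change of at least 2, and 2 with no fold change threshold. Leaving out 1 library gave 0 to 1. The count called higher was 1, against 2 with total counts or no fold change threshold, 0 with GC offsets (with and without the block) or a fold change of at least 2, and 0 to 2 with 1 library left out. For the difference 0 members had a lower MLL1 KD effect past the threshold, against 1 with DESeq2 on the same genes, GC offsets with the block, or replicates 2 and 3 alone, and 2 with the block alone or with length offsets. The count with a higher MLL1 KD effect was 1, against 0 with no filter, GC offsets, length offsets or a fold change of at least 2, and 2 with GC offsets and the block, and 0 to 1 with 1 library left out. The cause of these changes was not tested.

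In the AF9 experiment KMT2B turned to −0.15 and KMT2D to −0.019 with GC offsets, and to −0.15 and −0.0205 with GC offsets and the block. For the difference KMT2B turned to −0.10 with total counts, −0.0195 with a mean TPM of at least 5, −0.0357 with length offsets and −0.0332 with length offsets and the block, and lay between −0.17 and 0.19 with 1 library left out. SETD1A turned to 0.26 with GC offsets (0.26 with the block) and SETD1B to 0.21 (0.20). Total counts moved the median difference of all genes to −0.11.

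In the AF9 experiment same-numbered deviations correlated at 0.156 over 2 pairs, and 2 pairs are too few to take the numbers as pairs. The block fits of this experiment and of the difference paired them all the same. In the AF9 experiment the block left 1 member called lower (5.53% of all genes) and 1 higher (9.15%). It raised the members higher by the adjusted p from 2 to 4, while that share of all genes rose from 14.4% to 20.6%. KMT2B was then at an edgeR adjusted p of 0.0045 (0.099 without the block) and KMT2D at 0.030 (0.12). Over all genes the calls after MLL1 KD were 5 lower and 4 higher, against 360 and 319 with the block, 119 and 113 with DESeq2 on the same genes, 109 and 104 with DESeq2 on all genes, 257 and 207 with DESeq2 and the block, 343 and 361 with replicates 2 and 3 alone, and 14 and 18 with no filter. After AF9 KD they were 675 and 1069, against 567 and 495 with GC offsets, 438 and 1415 with total counts and 138 and 372 with a threshold of 2-fold. For the difference they were 73 and 99, against 1528 and 1578 with the block and 19 and 33 with GC offsets.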
